A study of Mus musculus with 6 samples.

Results

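The genes described here are the CCN family of secreted matrix proteins, *Ccn1* to *Ccn5*, with 4 further genes known as targets of YAP, namely *Ankrd1*, *Foxf2*, *F3* and *Dock5*. They were taken by symbol from the table of gene counts, and all 9 were found among its 55401 genes. Some of them were chosen because they were higher in *Phf2* KO cells in these same libraries, so their difference between the groups is given as a description without a test. The RNA came from C2C12, an established line of mouse myoblasts able to fuse and form myotubes, taken 2 d post differentiation in medium with 2% horse serum. The 3 *Phf2* KO libraries came from cells transfected with 4 pooled plasmids that each carried a guide RNA against *Phf2* and a ZsGreen1 reporter, and the 3 control libraries, labelled wild type, came from mock cells that received such a plasmid with a guide that has no match in the mouse genome. Both groups were sorted for ZsGreen1, expanded as a pool without cloning, and frozen before differentiation. Wells of 1 experiment served as replicates, so any p-value below measures only the spread between wells. Differences between the pools, effects of cutting DNA (which the control guide does not do) and effects of *Phf2* itself cannot be told apart.

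YAP and its relative TAZ are co-activators that shuttle between cytoplasm and nucleus. The Hippo kinases keep them out of the nucleus, and when they enter it they bind TEAD factors on DNA and switch on genes such as *Ccn1*, *Ccn2* and *Ankrd1*. CCN proteins are built from modules shared with other matrix and growth factor binding proteins and signal mainly through integrins. In muscle cells, YAP activity is known to favour proliferating myoblasts and to oppose terminal differentiation.

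The level of *Phf2* was between 95.5 and 104.6 CPM (the estimated count relative to the library total, after TMM scaling) in control libraries and between 37.6 and 41.1 CPM in *Phf2* KO libraries. The libraries held between 52526109 and 67502788 estimated counts. The 8 muscle markers examined (*Myod1*, *Myog*, *Mymk*, *Mymx*, *Des*, *Ckm*, *Acta1* and *Ttn*) were all expressed. The summed markers of endothelial, epithelial and adipose cells did not exceed 0.536 CPM in any library, those of immune cells 1.88 CPM and those of glia 2.82 CPM, and *Adgre1*, *Epcam*, *Krt18*, *Plin1* and *Sox10* were at 0 in every library.

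Promoter sequences bear on these genes because TEAD factors recognise a short motif. RefSeq (build GRCm38.p6) gave a promoter for 4 of the 9 genes (*Ccn1*, *Ankrd1*, *Foxf2* and *F3*), and *Ccn2*, *Ccn3*, *Ccn4*, *Ccn5* and *Dock5* had no entry. The 250 bases before the start were searched on both strands for the TEAD motifs GGAATG and GGTATG, the E-box CANNTG and the SRF CArG box. They were also searched for TGANTCA, a loose form of the AP-1 motif that allows any base at its centre. The 3 promoters that held a TEAD or AP-1 match are printed 5′ to 3′ on the strand of the gene, with those matches in capitals. They lie at chr3:145649986-145650235 (*Ccn1*, minus strand), chr19:36119845-36120094 (*Ankrd1*, minus strand) and chr3:121723287-121723536 (*F3*, plus strand).
Ccn1: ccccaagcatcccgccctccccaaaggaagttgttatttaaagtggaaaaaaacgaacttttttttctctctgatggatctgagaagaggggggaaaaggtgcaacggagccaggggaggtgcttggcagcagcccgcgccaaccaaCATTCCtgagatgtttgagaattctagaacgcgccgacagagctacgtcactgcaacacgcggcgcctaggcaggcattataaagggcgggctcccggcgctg
Ankrd1: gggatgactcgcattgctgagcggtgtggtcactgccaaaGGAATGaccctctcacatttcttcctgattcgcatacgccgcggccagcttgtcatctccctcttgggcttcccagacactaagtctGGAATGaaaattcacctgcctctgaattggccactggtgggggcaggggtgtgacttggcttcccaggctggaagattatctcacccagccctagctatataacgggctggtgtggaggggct
F3: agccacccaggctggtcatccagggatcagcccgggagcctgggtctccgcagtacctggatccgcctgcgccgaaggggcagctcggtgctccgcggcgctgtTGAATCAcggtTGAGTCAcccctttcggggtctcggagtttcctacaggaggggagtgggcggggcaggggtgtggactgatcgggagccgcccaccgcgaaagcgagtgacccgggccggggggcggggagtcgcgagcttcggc

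The *Ccn1* promoter held 1 match to GGAATG, on the opposite strand and 103 bases before the start, and the sequence TATAAA. The *Ankrd1* promoter held 2 matches to GGAATG, 210 and 123 bases before the start, on the strand of the gene. The *F3* promoter held 2 matches to TGANTCA, which began 146 and 135 bases before the start, and no TEAD match. The *Foxf2* promoter held no match to a TEAD or AP-1 motif, and none of the 4 promoters held GGTATG or the CArG box. An E-box was found in the promoters of *Ankrd1* and *Foxf2*. The RefSeq start of *Ankrd1* lies inside the gene as GENCODE draws it and is not its outermost start. For comparison, GGAATG was present in 12.6% of 32851 promoter windows of the same length, TGANTCA in 6.75%, GGTATG in 5.19%, the CArG box in 1.47% and the E-box in 66.2%. A match is a description of the sequence and does not show binding.

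The 9 genes lie on 7 chromosomes. *Ccn1* and *F3* share chromosome 3, 23.9 Mb apart, and *Ccn3* and *Ccn4* share chromosome 15, 12.1 Mb apart. Each CCN gene has 5 exons in its longest coding transcript (GENCODE M21, GRCm38). Their coding sequences hold 379 codons for *Ccn1*, 348 for *Ccn2*, 354 for *Ccn3*, 367 for *Ccn4* and 251 for *Ccn5*, the family member that lacks the C-terminal module. *Dock5* is the longest of the genes described, with 52 exons and 1868 codons.

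The order of the genes was compared on the TPM scale, which accounts for transcript length. The values of reference genes in these tables sum to between 976993 and 984559 in a library, and those of assembled loci, listed apart and not used, sum to 1000000. In control cells, *Ccn1* had the highest level, with 491.3 ± 70.2 TPM (SD, n = 3). It was followed by *Ankrd1* with 366.5 ± 14.5, *Ccn2* with 263.4 ± 17.4 and *Ccn4* with 130.9 ± 13.4 TPM. Among the 17310 genes tested, *Ccn1* ranked 259, *Ankrd1* 355 and *Ccn2* 501 by control TPM. *F3* had 64.1 ± 5.59 TPM, *Ccn5* 36.3 ± 3.69, *Ccn3* 27.5 ± 4.73, *Dock5* 16.6 ± 0.572 and *Foxf2* 14.8 ± 0.446 TPM. The ranges of neighbouring genes in this order did not overlap among the control libraries, although *Ccn5* and *Ccn3* came as close as 32.8 and 31.7 TPM.
In *Phf2* KO cells, 3 pairs of neighbours changed places in the order of means. *Ccn2* stood above *Ankrd1*, with its lowest library at 380.6 TPM and the highest *Ankrd1* library at 379.5 TPM. *Ccn3* stood above *Ccn5*, with 39.4 TPM against 36.6 TPM at the nearest point. *Foxf2* (20.5 ± 2.07 TPM) and *Dock5* (19.6 ± 0.635 TPM) had ranges that overlapped. The sixth family member, *Ccn6*, had 9 estimated counts in *Phf2* KO replicate 2 and 0 in the other libraries. A limit of 3 read pairs, taken as 12 estimated counts, corresponds to 0.178 to 0.228 CPM, so *Ccn6* was not detectable at this depth.

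**Figure D1:**
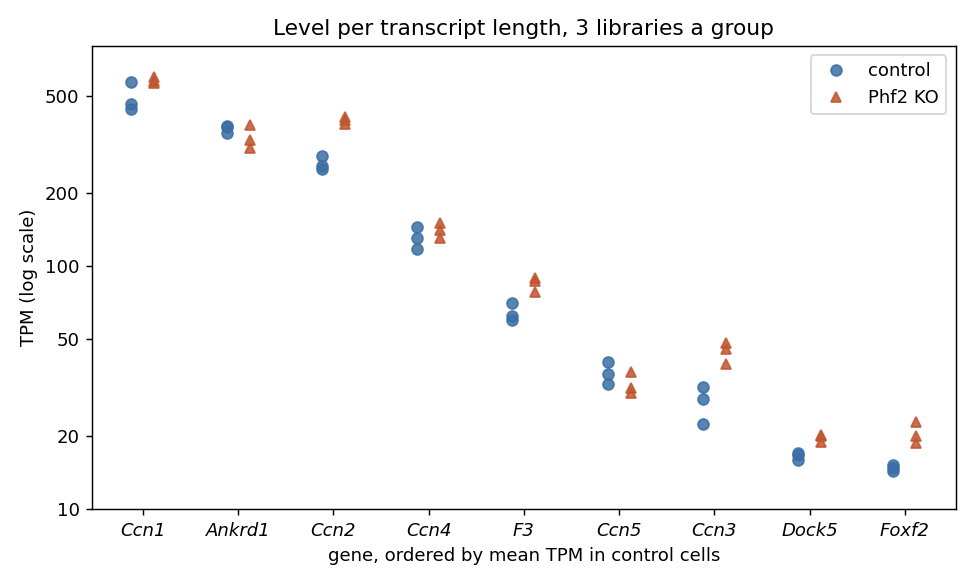
Level of each gene in TPM (log scale) in the 3 control libraries (circles) and the 3 *Phf2* KO libraries (triangles), ordered by the control mean. *Ccn1* leads in both groups, *Ccn2* lies below *Ankrd1* in the control libraries and above it in the *Phf2* KO libraries, and *Foxf2* and *Dock5* are lowest.

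All 9 genes passed the filter on low counts, with means from 16.2 CPM (*Foxf2*) to 459.3 CPM (*Ccn1*) in control cells. In *Phf2* KO cells 7 were higher and 2 were lower. The log2 fold change (*Phf2* KO minus control) lay between -0.15 and 0.68, and its median was 0.24, against -0.001 over all 17310 genes. In the quasi-likelihood fit of edgeR, 5 of the 9 were higher past the threshold (adjusted p under 0.05), beside 6.48% of all genes tested in either direction and 3.22% in that direction, and none of the 9 was lower past it. The 5 genes were *Ccn2*, *Ccn3*, *Foxf2*, *F3* and *Dock5*. In the same 5 genes every *Phf2* KO library lay above every control library, as for 12.9% of all genes tested, and 25.1% of all genes had separate groups in either direction. Since genes were chosen on this contrast, nothing is read from these counts. The number was 3 without *Phf2* KO replicate 2 and 1, *Ccn2*, in the limma fits of TPM.

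*Ccn2*, also called connective tissue growth factor, promotes matrix production and is the classic readout of YAP activity. Its level was 275.9, 285.0 and 312.3 CPM in control replicates 1, 2 and 3 and 452.8, 418.3 and 423.4 CPM in *Phf2* KO replicates 1, 2 and 3. The lowest *Phf2* KO library was 106.0 CPM above the highest control library, the widest gap among the genes described. Control cells thus averaged 291.1 ± 18.9 CPM and *Phf2* KO cells 431.5 ± 18.6 CPM (SD, n = 3 each), or 148.2% of control. The log2 fold change was 0.57 (standard error, SE, 0.051), and it stayed between 0.53 and 0.62 with each library left out in turn. A noncoding gene, *Gm15270*, overlaps *Ccn2* on the opposite strand. It held 477 estimated counts over the 6 libraries, while *Ccn2* held at least 15737 in each.

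*Ccn1*, also called Cyr61, is a secreted protein of cell adhesion and an immediate early gene. Its level was 433.1, 413.9 and 530.9 CPM in control replicates 1 to 3 and 541.5, 554.4 and 509.4 CPM in *Phf2* KO replicates 1 to 3. Control replicate 3 stood apart from the other controls and lay above *Phf2* KO replicate 3, so the groups overlapped. The mean was 459.3 ± 62.7 CPM in control cells and 535.1 ± 23.2 CPM in *Phf2* KO cells (SD, n = 3 each), or 116.5% of control. The log2 fold change was 0.22 (SE 0.096) and became 0.34 without control replicate 3 and 0.15 without control replicate 2.

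*Ccn3*, also called Nov, encodes a CCN protein that often opposes growth. Its level was 29.8, 37.8 and 41.9 CPM in control replicates 1 to 3 and 53.0, 60.0 and 62.2 CPM in *Phf2* KO replicates 1 to 3. The groups were separate, with a gap of 11.1 CPM. The ratio of *Phf2* KO to control was the highest of the 9 genes, at 160.0% of the control level, and so was the spread among control libraries, with a coefficient of variation of 16.9%. The log2 fold change was 0.68 (SE 0.12) and lay between 0.55 and 0.79 with each library left out.

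*Ccn4* and *Ccn5*, also called Wisp1 and Wisp2, were first described as genes induced by Wnt signaling. *Ccn4* had 283.8, 311.0 and 349.0 CPM in control replicates 1 to 3 and 320.9, 339.7 and 341.8 CPM in *Phf2* KO replicates 1 to 3. Every *Phf2* KO library lay within the range of the control libraries, and the log2 fold change was 0.09 (SE 0.065). It was 0.02 without control replicate 1 and 0.17 without control replicate 3. *Ccn5* had 32.1, 26.6 and 29.1 CPM in control replicates and 30.2, 24.7 and 24.2 CPM in *Phf2* KO replicates. Its groups overlapped, and the log2 fold change was -0.15 (SE 0.096). Leaving out control replicate 1 gave -0.08, and leaving out replicate 1 or 3 of *Phf2* KO gave -0.26 or -0.09. The family thus held 2 genes with separate groups, *Ccn2* and *Ccn3*, and 3 with overlapping groups. Over all genes tested, 25.1% had separate groups in either direction.

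The makeup of the family was measured as each gene's percentage of the summed TPM of *Ccn1* to *Ccn5*. The sum was 949.3 ± 101.6 TPM in control cells and 1188 ± 2.58 TPM in *Phf2* KO cells (SD, n = 3 each). *Ccn1* held 51.6 ± 2.04% of it in control cells and 48.5 ± 1.31% in *Phf2* KO cells. *Ccn2* held 26.5% to 29.0% in the control libraries and 32.0% to 34.3% in the *Phf2* KO libraries. *Ccn4* went from 13.8 ± 0.767% to 11.8 ± 0.859%, and *Ccn5* from 3.85 ± 0.579% to 2.75 ± 0.298%. The share of *Ccn3* was 2.89 ± 0.345% and 3.73 ± 0.377%. The shares of *Ccn2*, *Ccn3*, *Ccn4* and *Ccn5* did not overlap between the groups, and that of *Ccn1* did. Some genes were chosen on this contrast, and such shares were not computed for other genes, so nothing is read from this count. Since these are parts of a sum, a gene that rises lowers the shares of the others. The level of *Ccn4* itself was 130.9 ± 13.4 TPM in control cells and 140.0 ± 10.3 TPM in *Phf2* KO cells. The groups of *Ccn5* overlapped in level.

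**Figure D2:**
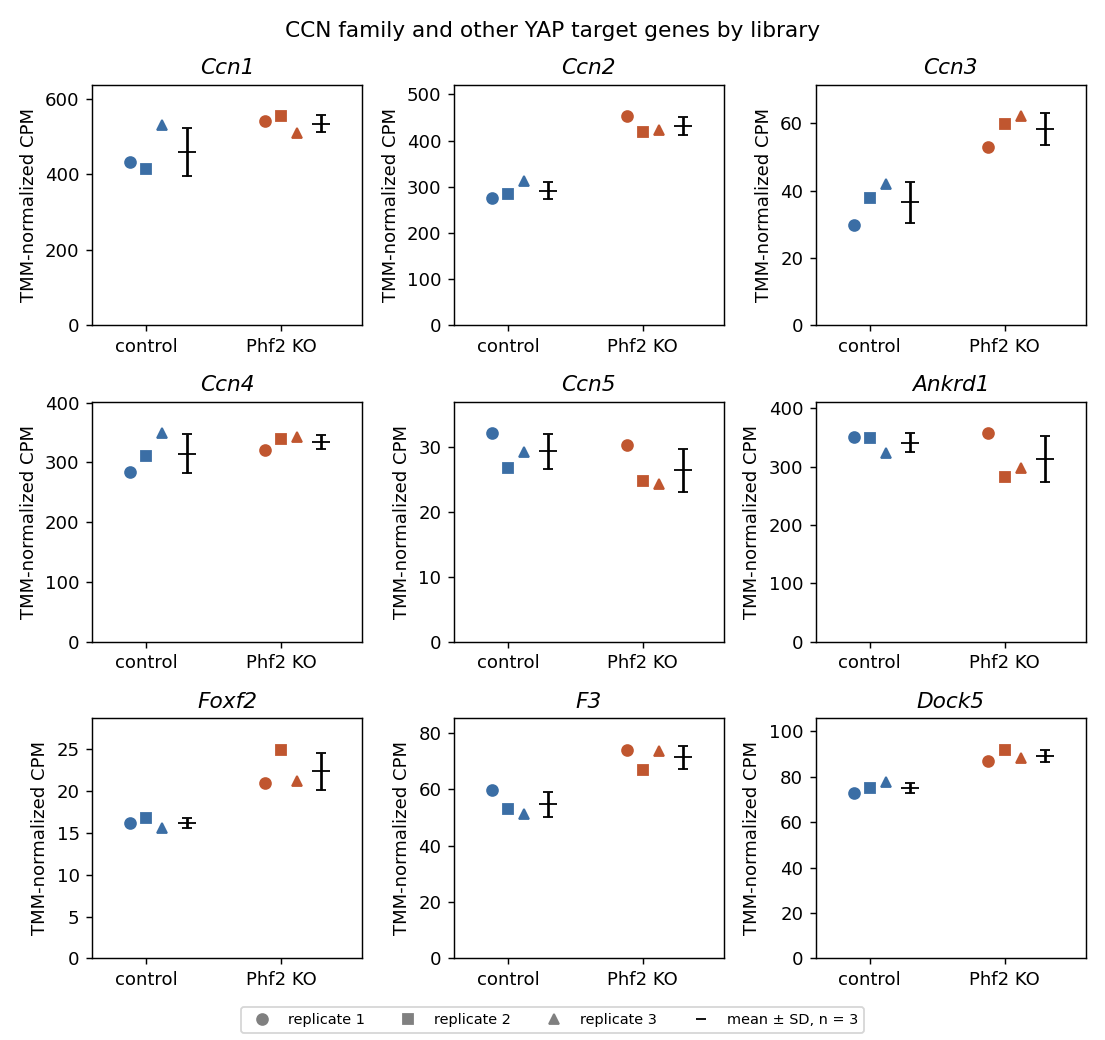
TMM-normalized CPM of the 9 genes in control (blue) and *Phf2* KO (orange) libraries, with a marker shape for each replicate number, and the mean ± SD (n = 3) in black. The groups are separate for *Ccn2*, *Ccn3*, *Foxf2*, *F3* and *Dock5*, and they overlap for *Ccn1*, *Ccn4*, *Ccn5* and *Ankrd1*.

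*Ankrd1* encodes a stretch-responsive ankyrin repeat protein that is found at titin in the sarcomere and in the nucleus, and it is a standard YAP target. Its level was 351.2, 349.8 and 323.7 CPM in control replicates 1 to 3 and 357.9, 283.0 and 297.7 CPM in *Phf2* KO replicates 1 to 3. *Phf2* KO replicate 1 was above all controls, and the other *Phf2* KO libraries were below all controls. The mean was 341.6 ± 15.5 CPM in control cells and 312.9 ± 39.7 CPM in *Phf2* KO cells (SD, n = 3 each), with a log2 fold change of -0.13 (SE 0.085). Leaving out *Phf2* KO replicate 1 gave -0.23, and leaving out replicate 2 of that group gave -0.06. Thus *Ankrd1* was lower on average with overlapping groups, while *Ccn2* was higher with separate groups. The part of YAP in either level was not tested.

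*Foxf2* encodes a forkhead transcription factor of mesenchymal cells. Its level was 16.2, 16.8 and 15.6 CPM in control replicates 1 to 3 and 20.9, 24.9 and 21.2 CPM in *Phf2* KO replicates 1 to 3. The groups were separate by 4.12 CPM, and the level in *Phf2* KO cells was 137.9% of the control level, a log2 fold change of 0.46 (SE 0.090). Without *Phf2* KO replicate 2, the highest library, it was 0.38.

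*F3* encodes tissue factor, the cell surface receptor that starts the clotting cascade. Its level was 59.7, 53.0 and 51.0 CPM in control replicates 1 to 3 and 73.9, 66.7 and 73.4 CPM in *Phf2* KO replicates 1 to 3. The groups were separate by 6.95 CPM, and the log2 fold change was 0.39 (SE 0.065). *Dock5* encodes an activator of the small GTPase Rac. Its level was 73.0, 75.0 and 77.5 CPM in control replicates and 86.9, 91.9 and 88.2 CPM in *Phf2* KO replicates. It varied least within the groups, with a coefficient of variation of 3.00% in control and 2.94% in *Phf2* KO libraries, and its log2 fold change was 0.24 (SE 0.047).

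The deviation of each library from its group mean leaves out the difference between the groups. The choice of genes by that difference may still bear on the spread within groups. Control replicate 3 was the highest control for 5 of the 9 genes (*Ccn1*, *Ccn2*, *Ccn3*, *Ccn4* and *Dock5*) and the lowest for 3 (*Ankrd1*, *Foxf2* and *F3*). Over all genes tested it was the highest in 34.0% and the lowest in 34.1%. On the log2 scale it lay above the control mean by 0.22 for *Ccn1*, 0.10 for *Ccn2*, 0.21 for *Ccn3* and 0.15 for *Ccn4*. The lowest control was replicate 2 for *Ccn1* and replicate 1 for *Ccn2*, *Ccn3* and *Ccn4*. Among the *Phf2* KO libraries no replicate was highest for all CCN genes, since *Ccn1* was highest in replicate 2, *Ccn2* and *Ccn5* in replicate 1, and *Ccn3* and *Ccn4* in replicate 3. *Ccn5* and *Ankrd1* both lay 0.20 above the *Phf2* KO mean in replicate 1.
The summed level of the 8 muscle markers was 7105, 6839 and 5923 CPM in control replicates 1 to 3 and 5078, 4701 and 4993 CPM in *Phf2* KO replicates 1 to 3. It was thus lowest among controls in replicate 3, where 4 of the 5 CCN genes were highest and *Ankrd1*, *Foxf2* and *F3* were lowest. It was lower still in all *Phf2* KO libraries. Among these it was lowest in replicate 2, where *Ccn2*, *Ankrd1* and *F3* were lowest and *Ccn1*, *Foxf2* and *Dock5* were highest. In *Phf2* KO cells the 8 markers were all lower, and *Myog*, *Mymk*, *Mymx*, *Des* and *Ckm* passed the threshold in edgeR's quasi-likelihood test, as 3.26% of all genes tested did in that direction. Fewer cells of a type and less RNA per cell cannot be told apart in these bulk libraries, and the part of the muscle markers in the levels of the CCN genes was not tested. The summed markers of cycling cells (*Mki67*, *Top2a*, *Ccnb1* and *Cdk1*) were between 171.5 and 191.6 CPM in control libraries and between 168.0 and 187.2 CPM in *Phf2* KO libraries, and none of the 4 passed the threshold.

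**Figure D3:**
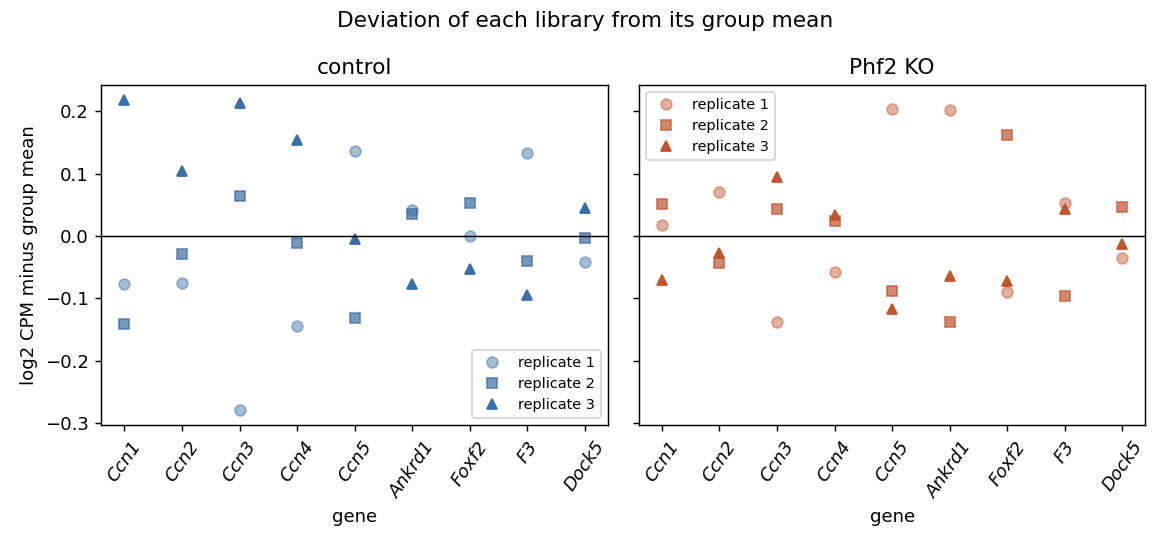
Deviation of each library from the mean of its own group in log2 CPM, for control (left) and *Phf2* KO (right) libraries. Control replicate 3 lies highest for *Ccn1* to *Ccn4*, while *Phf2* KO replicate 1 lies highest for *Ccn5* and *Ankrd1*.

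The genes with the pattern most like those of *Ccn1*, *Ccn2* and *Ankrd1* were looked up by Pearson's r of log2(CPM + 1) over the 6 libraries, among 10922 other genes whose mean was 5 CPM or more. They were *Pitpnc1*, *Prdm11* and *Tmem29* for *Ccn1* (r from 0.987 to 0.995), *Oga*, *Cat* and *Cyb5a* for *Ccn2* (r from 0.995 to 0.997), and *Gpt2*, *Med25* and *Polr2i* for *Ankrd1* (r from 0.990 to 0.993). The difference between the groups is part of these values, and each is the highest of many searched over 6 points. None of the 9 genes described was among them.

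The other genes of a widely used YAP/TAZ signature were counted next, since *Ccn1*, *Ccn2*, *Ankrd1*, *Foxf2*, *F3* and *Dock5* belong to it. Some of the genes so set apart were chosen for being higher, so the 16 others do not stand for the whole signature. Of these 16 genes, all were tested, 11 were higher and 5 were lower, and the median log2 fold change was 0.04. With an adjusted p under 0.05 in edgeR's quasi-likelihood test, 2 rose and 1 fell, against 3.22% and 3.26% of all genes. *Igfbp3*, a secreted binding protein of insulin-like growth factors, had 45.1, 47.6 and 37.0 CPM in control replicates 1 to 3 and 82.5, 76.6 and 85.1 CPM in *Phf2* KO replicates 1 to 3. It rose in 3 of 3 *Phf2* KO libraries, with a log2 fold change of 0.91 (SE 0.085, adjusted p = 1.37e-04 from the quasi-likelihood test). *Tgfb2*, a ligand of the TGF-beta family that itself induces *Ccn2* in many cells, had 97.5, 95.5 and 102.7 CPM in control replicates and 120.2, 128.6 and 124.4 CPM in *Phf2* KO replicates. Its log2 fold change was 0.34 (SE 0.046, adjusted p = 6.72e-04). Both genes stayed past the threshold with each library left out.
*Ccdc80*, a matrix protein, fell from 223.2 ± 6.95 to 198.3 ± 3.64 CPM (SD, n = 3 each), a log2 fold change of -0.17 (SE 0.043, adjusted p = 0.0295 from the quasi-likelihood test). It did not pass the threshold without control replicate 2 (0.109), control replicate 3 (0.101) or any 1 of *Phf2* KO replicates 1 to 3 (0.0789, 0.0728 and 0.104), nor with exactTest. Several abundant signature genes did not pass. *Myof*, which encodes the membrane repair protein myoferlin, had 360.7 ± 16.1 CPM in control cells and 359.2 ± 9.68 CPM in *Phf2* KO cells, with a log2 fold change of -0.01 (SE 0.044). *Axl*, a receptor tyrosine kinase, had 408.5 ± 18.8 and 419.3 ± 13.5 CPM, a log2 fold change of 0.04 (SE 0.045). *Amotl2* and *Lats2*, which act as feedback inhibitors of YAP, had log2 fold changes of 0.05 (SE 0.051) and -0.08 (SE 0.057).

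**Figure D4:**
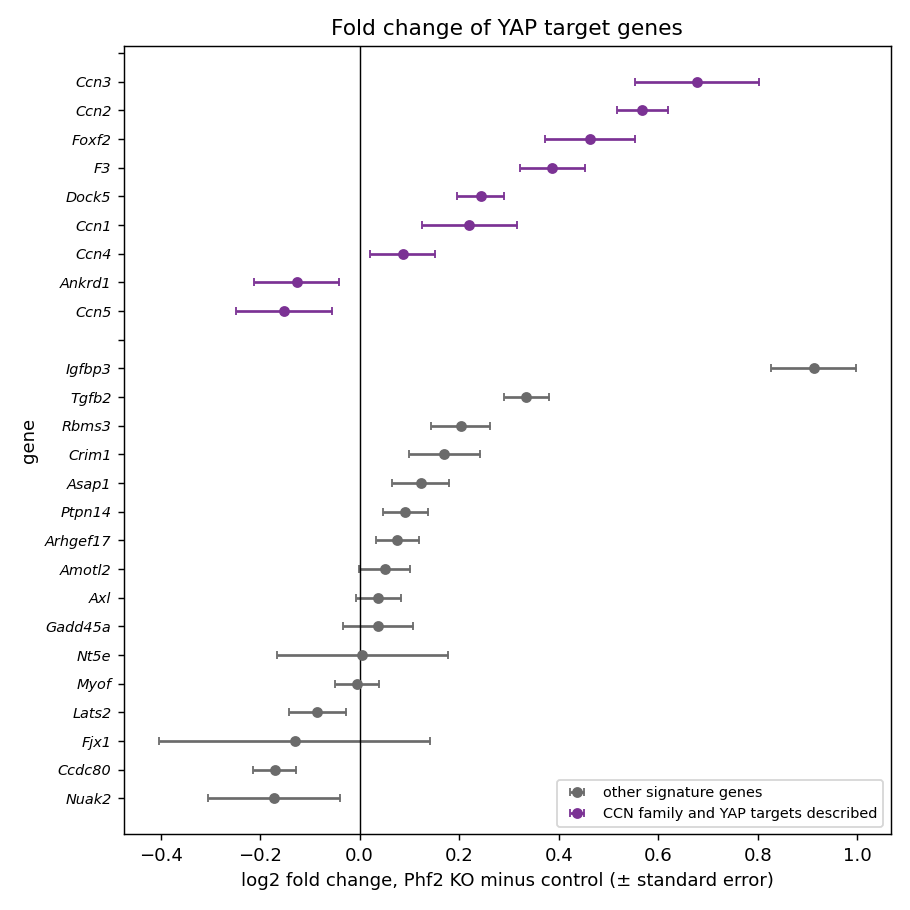
Log2 fold change of *Phf2* KO minus control with its standard error from the edgeR fit, for the 9 genes described (purple) and the 16 other genes of the YAP/TAZ signature (grey). The purple points run from -0.15 to 0.68, and among the grey points *Igfbp3* (0.91) and *Tgfb2* (0.34) lie farthest to the right.

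The factors that control these targets were read from a list of 20 Hippo pathway genes and YAP cofactors, of which 19 were tested. The levels of *Yap1* were 114.3 ± 2.29 CPM in control cells and 125.7 ± 7.97 CPM in *Phf2* KO cells (log2 fold change 0.14, SE 0.050 and adjusted p = 0.129 from the quasi-likelihood test). *Wwtr1*, which encodes TAZ, had 202.4 ± 5.46 and 203.5 ± 8.94 CPM, and *Tead1* had 229.0 ± 2.15 and 237.2 ± 8.46 CPM (SD, n = 3 each), and neither passed the threshold. *Tead4*, a TEAD factor that myogenic factors induce on differentiation, had 54.1, 50.8 and 40.4 CPM in control replicates and 35.5, 34.9 and 32.9 CPM in *Phf2* KO replicates. It fell, with a log2 fold change of -0.49 (SE 0.094, adjusted p = 0.00994). *Amot*, which encodes a protein that binds YAP at cell junctions, rose from 204.2 ± 6.97 to 234.5 ± 11.1 CPM, a log2 fold change of 0.20 (SE 0.047, adjusted p = 0.0220). No other gene of the list passed, and the median log2 fold change was 0.01.
Neither call held in every fit. For *Tead4*, the adjusted p in the fit of the remaining libraries was 0.0591 when control replicate 2 was left out, and it was 0.0529 and 0.0745 when replicate 2 or 3 of *Phf2* KO was. For *Amot* it was 0.112 and 0.0901 when control replicate 1 or 2 was left out, and 0.0765 and 0.103 when replicate 2 or 3 of *Phf2* KO was.

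MRTF co-activators, which sense free actin and bind SRF, share several targets with YAP and TEAD. All 21 of their listed targets were tested, with 15 higher and 6 lower in *Phf2* KO cells and a median log2 fold change of 0.09. In the quasi-likelihood test 9 rose and 2 fell, against 3.22% and 3.26% of all genes, and with exactTest 6 rose and 2 fell. Without control replicate 2 the numbers were 5 and 0, without *Phf2* KO replicate 2 they were 4 and 1, and in the limma fits of TPM they were 5 and 0. *Actg2*, the smooth muscle gamma-actin gene, had 99.5, 96.5 and 96.8 CPM in control replicates and 125.8, 122.1 and 114.7 CPM in *Phf2* KO replicates, a log2 fold change of 0.31 (SE 0.046, adjusted p = 0.00120). *Tagln*, the gene of an actin-binding protein also called SM22, rose from 248.0 ± 4.81 to 294.6 ± 13.8 CPM, a log2 fold change of 0.25 (SE 0.045, adjusted p = 0.00429). Both stayed past the threshold with each library left out.
*Myl9*, a myosin regulatory light chain gene, rose from 138.9 ± 8.02 to 164.2 ± 5.71 CPM (adjusted p = 0.0108), and *Fhl2*, a LIM domain gene, rose from 96.0 ± 6.25 to 112.8 ± 8.01 CPM (adjusted p = 0.0343). *Myl9* lost its call in 3 of the 6 fits without 1 library (control replicate 2 or 3, or *Phf2* KO replicate 2, up to 0.0787). *Fhl2* lost it in all of them but the one without control replicate 3, with up to 0.189. The other genes that rose were *Acta2*, *Actb*, *Actg1*, *Cnn2* and *Flna*, with log2 fold changes from 0.16 to 0.23. The largest change of the list in size was that of *Cnn1*, which was lower and did not pass the threshold. It had 5.52 ± 0.682 CPM in control cells and 3.85 ± 0.271 CPM in *Phf2* KO cells (log2 fold change -0.52). Without *Phf2* KO replicate 2, *Acta2*, *Actb* and *Actg1* did not pass (0.0602, 0.0686 and 0.0647), nor did *Actb* and *Actg1* without control replicate 2 (0.0657 and 0.0578), and none of these 3 passed with exactTest. Actin genes encode nearly identical proteins, and how the counting split reads between these related genes was not checked. *Tpm2*, a tropomyosin of slow muscle, fell from 1769 ± 140.5 to 1464 ± 76.7 CPM (adjusted p = 0.0209, and up to 0.202 in the 4 fits without control replicate 1 or 2 or *Phf2* KO replicate 2 or 3). *Tagln2* had a log2 fold change of -0.26 (adjusted p = 0.0274) on the counts and 0.09 on the TPM, so that its direction, counted above as a fall, turned with the unit. On the counts it lost its call without control replicate 2 or 3 or *Phf2* KO replicate 1 or 3, with up to 0.148.

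The last list held 26 receptors and partners of the encoded proteins, of which 22 were tested, with 2 that rose and 5 that fell in the quasi-likelihood test, against 3.22% and 3.26% of all genes. Of the CCN receptors, 10 were tested. *Lrp6*, a Wnt co-receptor, rose from 232.6 ± 7.77 to 264.6 ± 6.58 CPM (log2 fold change 0.19, adjusted p = 0.0194) and *Itgav*, the integrin alpha-v gene, from 202.2 ± 6.02 to 226.6 ± 7.62 CPM (log2 fold change 0.16, adjusted p = 0.0413). *Itga6* fell from 74.7 ± 4.87 to 63.7 ± 2.46 CPM (log2 fold change -0.23, adjusted p = 0.0286), and the seventh gene past the threshold, *Lrp1*, fell by 0.13 on the log2 scale. With exactTest *Lrp6*, *Itgav* and *Lrp1* did not pass, and 0 of the partners rose. *Itgav* also lost its call without any 1 library, with adjusted p-values from 0.0502 to 0.193. *Itga6* kept its call in 1 of these 6 fits (without control replicate 3), *Lrp6* in 2 (without control replicate 1 or *Phf2* KO replicate 2) and *Lrp1* in 2 (without control replicate 3 or *Phf2* KO replicate 1).
Among the partners of tissue factor, *F7*, *F10* and *F2rl1* did not pass the filter on low counts, and *F2*, *Tfpi*, *Thbd* and *F2r* did not pass the threshold. The inhibitor *Tfpi* had 47.2 ± 3.79 CPM in control cells and 47.9 ± 2.65 CPM in *Phf2* KO cells, while *F3* itself had 54.6 ± 4.57 and 71.3 ± 4.07 CPM. None of the 4 DOCK5 partners (*Elmo1*, *Elmo2*, *Elmo3* and *Rac1*) passed. The 4 partners and relatives of ANKRD1, with *Ttn* also a muscle marker above, were all lower in *Phf2* KO cells. *Ankrd2*, its closest relative in skeletal muscle, fell from 23.7 ± 3.11 to 15.2 ± 2.31 CPM (log2 fold change -0.64, adjusted p = 0.00773). *Mypn*, the gene of myopalladin, which anchors these proteins, fell from 10.1 ± 2.25 to 5.80 ± 0.470 CPM (log2 fold change -0.80, adjusted p = 0.00934), and *Ankrd23* fell by 0.39 on the log2 scale (adjusted p = 0.0116). Their largest adjusted p-values with a library left out were 0.0574, 0.0661 and 0.0657, and *Mypn* lost its call without control replicate 1 or 2 or *Phf2* KO replicate 2. *Ankrd2* lost its call without *Phf2* KO replicate 3, as did *Ankrd23*, which also lost it without control replicate 2. *Ttn* had a log2 fold change of -0.54 (SE 0.13, adjusted p = 0.111) and passed with exactTest.

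**Figure D5:**
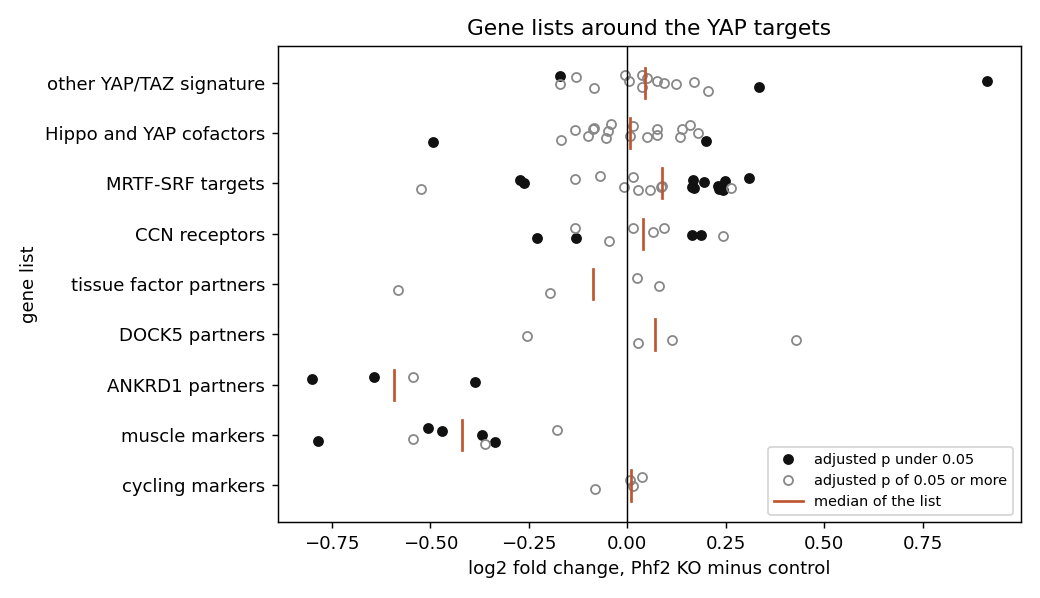
Log2 fold change (*Phf2* KO minus control) of each tested gene in the lists described, with filled points for an adjusted p under 0.05 and an orange bar at the median of the list. The 16 other YAP/TAZ signature genes, which leave out the genes described, and the Hippo list centre near 0 (medians 0.04 and 0.01). The ANKRD1 partners and muscle markers lie to the left.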

How the data were processed

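The authors aligned paired-end reads of polyadenylated RNA from 3 control and 3 *Phf2* KO wells to mm10 with HISAT2 and had StringTie estimate a count per gene. Versions, annotation and the use of strand are not given in the sources used here. The deposited matrix holds these estimated counts as whole numbers without normalization. For *Ccn1*, *Ccn3* and *Foxf2*, which have 1 transcript, control replicate 1 had 74.4 to 75.05 covered bases per count, and 1 read pair was therefore taken as 4 counts. A deposited table for each library holds TPM, a signal scaled within each library by the authors, and coverage. Only their rows of reference genes were used.

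The counts were fitted with edgeR 4.0.16 under R 4.3.3, using filterByExpr (minimum count 10), TMM, and the quasi-likelihood test with robust dispersions and Benjamini-Hochberg adjustment over 17310 genes, with a threshold of 0.05. All adjusted p-values of genes come from this fit unless another is named. The standard error is the log2 fold change (prior count 0.125) divided by the root of F. The alternatives were exactTest (the test the study names), DESeq2 1.42.0, DESeq2's size factors, library size alone, no filter, counts divided by 4, the replicate number as a block, limma 3.58.1 with trend on log2(TPM + 1) and log2(TPM + 0.1), and leaving out each library. Figures were drawn with Python 3.11.15.

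The genes described and the lists were chosen with earlier results of these data known. Named were the 9 genes, *Phf2*, *Ccn6*, *Yap1*, *Wwtr1*, *Tead1*, *Tead4*, up to 6 genes past the threshold per list with the largest change, and the 3 genes most like each of *Ccn1*, *Ccn2* and *Ankrd1*. Other genes were named after their values were seen. The procedure was tested on simulated data. Over 10923 genes, the deviations from the group means correlated by 0.235, 0.258 and 0.168 between same-numbered libraries and by at most -0.002 between others. Groups of 3 libraries allow few ways to match them, and whether the numbers mark a pairing of wells was not tested. Deviations within a group cancel out, so the negative values follow in part from the positive ones. The study describes no pairing, and its test has none.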

Additional observations from a re-analysis of the deposited data

How the results depend on the processing

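The log2 fold changes of the 9 genes kept their direction in all 15 alternatives. These alternatives refit the same libraries in which some of the genes were chosen for being higher. Nothing is therefore read from the kept direction or from the counts of these genes that follow. The number of these genes higher past the threshold was 5, and 3 to 6 with a library left out. It was 4 without the filter and 1 in both limma fits of TPM, and without *Phf2* KO replicate 1 *Ankrd1* was lower past the threshold. Of all genes, 1122 passed, and 158 did with limma on log2(TPM + 1) and 178 with log2(TPM + 0.1). For the other signature genes the number was 3 and became 1 with log2(TPM + 1). The Hippo list went from 2 to 0 in both fits, the MRTF-SRF targets from 11 to 5 and the partners from 7 to 0. Leaving out 1 library gave 468 to 1039 genes in all, 2 to 4 signature genes, 0 to 2 Hippo genes, 5 to 10 MRTF-SRF targets and 1 to 5 partners, with the lowest total without control replicate 2. The limma fits use another unit and estimate of spread, and the cause of the lower numbers was not tested. With exactTest 1127 genes passed, among them 2 signature genes, 2 Hippo genes, 8 MRTF-SRF targets and 5 partners. This total is well above the one the study reports with that test, and the cause of the difference was not tested. The replicate block gave 1316 genes and 5 of the 9, and it changed no call of a gene named above with an adjusted p. Of the muscle markers 5 passed, 8 with DESeq2 and 4 to 6 with a library left out. TPM values do not carry depth, and groups of 3 limit the precision of every error given.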
